A study of Mus musculus with 10 samples.

Results

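A set of 9 genes that encode enzymes and proteins of the lysosome was followed in visceral white adipose tissue (WAT) of mice by mRNA-seq. They were taken from a fixed list of symbols and are 9 of the 47937 genes counted in each library. Ctsb, Ctsd, Ctsk, Ctsl and Ctss encode cathepsins B, D, K, L and S, Lipa encodes lysosomal acid lipase, Hexa the alpha subunit of beta-hexosaminidase, Npc2 a soluble cholesterol-binding protein, and Lamp1 a glycoprotein of the lysosomal membrane. The 10 libraries came from 4 groups of mice, labelled C57BL/6 and, per the methods, backcrossed to C57BL/6J, with 3 wild type (Mof+/+) and 3 Mof heterozygous (Mof+/-) libraries on standard diet (SD) and 2 libraries of each genotype on high-fat diet (HFD). According to the labels the SD-fed mice were 8 weeks old, and the HFD-fed mice were 27 weeks old and had received HFD for 20 weeks, so that diet and age cannot be told apart. The paper gives a longer time on HFD than the labels and, in its methods, a young age for the sequenced mice, so that the true age and feeding time of the HFD groups are uncertain. Mof, also named Kat8, encodes a lysine acetyltransferase of histone H4. The Mof+/- mice carry 1 disrupted copy in the whole body, and whole tissue was extracted, so that no comparison is restricted to adipocytes. In such bulk samples, fewer cells of a type and less RNA per cell cannot be told apart.

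Lysosomes are acidic organelles in which proteins, lipids and glycans are broken down. Cathepsins are their main proteases. Lysosomal acid lipase releases fatty acids and free cholesterol from triglycerides and cholesteryl esters that reach the lysosome, and NPC2 hands the cholesterol on for export. In adipose tissue, lysosomal genes are expressed by adipocytes and are abundant in macrophages, which take up lipid from dying adipocytes in obesity. Many lysosomal genes carry the E-box CACGTG near their start, a sequence that the MiT/TFE transcription factors TFEB, TFE3 and MITF can bind.

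RefSeq promoters (GRCm38.p6, 250 bases before to 50 bases after the start) were found for 8 of the 9 genes, all but Ctsb. CACGTG, which reads the same on both strands, was present in 3 of these 8 promoters, beside 7.15% of all 32851 promoters. Lamp1 held it at 4 positions, Ctsd at 2 and Ctsl at 1. The longer TCACGTGA, which contains CACGTG, was found in Ctsd alone among the 8, beside 0.974% of all promoters. Windows of these promoters are shown on the strand of the gene, 5′ to 3′, with CACGTG in capitals. The first 3 hold the matches of Lamp1, 1 match of Ctsd and the match of Ctsl, and the last 2 are the bases just before the starts of Ctsk and Ctss, the neighbouring genes with the highest fold changes on HFD, in which the motif was not found. Starts are those of RefSeq, which for Ctsd, Ctsl and Ctsk differ from the gene starts of the annotation used for the levels.
Lamp1 (chr8:13159091-13159160, plus strand): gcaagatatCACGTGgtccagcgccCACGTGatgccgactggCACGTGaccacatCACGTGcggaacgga
Ctsd (chr7:142387893-142387952, minus strand): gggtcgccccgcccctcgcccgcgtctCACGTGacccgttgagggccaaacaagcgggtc
Ctsl (chr13:64370711-64370770, minus strand): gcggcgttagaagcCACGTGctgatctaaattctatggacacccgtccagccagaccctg
Ctsk (chr3:95499150-95499209, plus strand): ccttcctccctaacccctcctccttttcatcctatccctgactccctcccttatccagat
Ctss (chr3:95526726-95526785, plus strand): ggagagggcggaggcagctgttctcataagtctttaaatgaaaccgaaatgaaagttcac
A match describes the letters of a window and is not evidence of binding.

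The labels set the groups. In the count files themselves, the heading of the third SD Mof+/+ library names it a heterozygote and that of the third SD Mof+/- library a control. The headings number the HFD Mof+/- libraries 3 and 4 and the HFD Mof+/+ libraries 1 and 2. Levels are given as CPM, counts scaled to a library total of 1e+06. Xist reached 46.1 to 139 CPM in each of the 3 SD Mof+/- libraries and was at 0 in all others, and Ddx3y, Eif2s3y, Kdm5d and Uty were at 0 in those 3 libraries and detected in every SD Mof+/+ library. Grouped by the headings, each SD group would hold libraries with and without Xist. The methods describe male mice, but on SD genotype and sex cannot be told apart in these libraries, and the same holds for the comparison of diets in Mof+/- and for the interaction. Kat8 was at 20.4 to 21.5 CPM in SD Mof+/+, 11.5 to 18.8 in SD Mof+/-, 18.1 and 19.2 in HFD Mof+/+, and 20.1 and 10.5 in HFD Mof+/-. Totals of counts on genes ran from 6724618 to 17171947 in the SD and HFD Mof+/+ libraries and the SD Mof+/- libraries, and were 1044355 and 5531786 in HFD Mof+/-. The first HFD Mof+/- library stood apart. It had 26.9% of its counts on the mitochondrial genome and 7.76% on 12 skeletal muscle markers. These markers were also raised in the second HFD Mof+/- library (1893 CPM, against at most 132.4 CPM in the other groups), so that all 12 were higher on HFD in Mof+/- than in Mof+/+ without overlap. In the first library 243 of the 4424 genes (5.49%) with at least 20 CPM in all other libraries were at 0. The results on HFD Mof+/- are therefore given with and without each of its 2 libraries. Adipocyte markers were present in all libraries, at a summed 15110 to 54590 CPM. The second SD Mof+/+ library had 1105 CPM of 6 glial markers, against at most 148 CPM in the others.

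Among the cathepsins, Ctsb and Ctsd had the highest levels. Cathepsin B is a cysteine protease that also removes dipeptides from protein ends (chr14:63122462-63145923, plus strand). Ctsb was at 1661, 2040.4 and 1999.6 CPM in SD Mof+/+ and at 2504.5, 2722 and 2424 CPM in SD Mof+/-. On HFD it reached 4763 and 6067 CPM in Mof+/+, and was at 1174 and 4490.1 CPM in Mof+/-. The Mof+/+ libraries on HFD lay above all SD libraries, whereas the HFD Mof+/- libraries lay on either side of them. Cathepsin D is the main aspartic protease of the lysosome (chr7:142375911-142388038, minus strand). Ctsd was at 1072, 1342 and 1189 CPM in SD Mof+/+ and at 1892, 1991 and 3464 CPM in SD Mof+/-. On HFD it was at 3686 and 4918 CPM in Mof+/+ and at 1451 and 5091 CPM in Mof+/-. The second HFD Mof+/- library had the highest Ctsd level of all 10 libraries.

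Cathepsin L is a cysteine endopeptidase (chr13:64359337-64370890, minus strand). Ctsl was at 428.4, 427.3 and 428.2 CPM in SD Mof+/+, and at 721, 766 and 766 CPM in SD Mof+/-. On HFD it was at 1147 and 1486 CPM in Mof+/+ and at 409 and 912 CPM in Mof+/-. The SD genotypes did not overlap, and the SD Mof+/+ libraries were almost equal. Cathepsins K and S are cysteine proteases known from osteoclasts and from antigen-presenting cells, and their genes lie side by side on chromosome 3, with 17423 bases and 0 annotated genes between them (Ctsk at chr3:95499256-95509362 and Ctss at chr3:95526786-95556403, both plus strand). Ctsk was at 38.2, 25.1 and 37.2 CPM in SD Mof+/+ and at 40.4, 32.4 and 34.9 CPM in SD Mof+/-. It reached 220.2 and 357 CPM in HFD Mof+/+, and was at 24.9 and 159 CPM in HFD Mof+/-. The first HFD Mof+/- value rests on 26 counts, with a 95% interval from 16.3 to 36.5 CPM (exact Clopper-Pearson) that includes levels of SD libraries. Ctss was at 84.7, 52.7 and 175 CPM in SD Mof+/+, and at 76.5, 83.2 and 62.3 CPM in SD Mof+/-. It was at 881 and 1031 CPM in HFD Mof+/+ and at 279.6 and 239.9 CPM in HFD Mof+/-. For Ctss alone among the 9 genes, both HFD Mof+/- libraries lay above all SD libraries. The highest SD value, in the third SD Mof+/+ library, stood beside a sum of 396.5 CPM for 6 lymphocyte markers in that library, against at most 65.6 CPM in the others. The part of those cells in this value was not tested.

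The 2 genes of lipid handling differed in level. Lipa (chr19:34492318-34527474, minus strand) was at 95.7, 75.1 and 109.7 CPM in SD Mof+/+ and at 78.2, 69.5 and 15.2 CPM in SD Mof+/-. It was at 401.5 and 514 CPM in HFD Mof+/+ and at 55.5 and 150.2 CPM in HFD Mof+/-. The third SD Mof+/- library held the lowest Lipa level of the study. Npc2 (chr12:84754562-84773152, minus strand) was at 401, 589.8 and 576 CPM in SD Mof+/+ and at 927, 1089 and 1536 CPM in SD Mof+/-. It was at 1702 and 2064 CPM in HFD Mof+/+ and at 506 and 1636 CPM in HFD Mof+/-. On SD the genotypes did not overlap for Npc2 and did overlap for Lipa.

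The enzyme that contains HEXA removes terminal hexosamines from gangliosides and glycans. Hexa (chr9:59539540-59565109, plus strand) was at 150.3, 118 and 168 CPM in SD Mof+/+ and at 174, 219.8 and 299 CPM in SD Mof+/-. It was at 393 and 589 CPM in HFD Mof+/+ and at 184 and 409.8 CPM in HFD Mof+/-. All SD Mof+/- values lay above all SD Mof+/+ values, by a small margin between the nearest libraries. Lamp1 (chr8:13159161-13175338, plus strand) was at 714, 763 and 722 CPM in SD Mof+/+ and at 598, 921 and 678 CPM in SD Mof+/-. It was at 1197 and 1406 CPM in HFD Mof+/+ and at 478 and 1278 CPM in HFD Mof+/-. Lamp1 spanned the narrowest fold range between the groups, and its SD genotypes overlapped. Exon bases are shared with other annotated genes by Ctsb (774 bases with Fdft1), Lamp1 (249 with Grtp1), Hexa (255 with Tmem202), Ctsd (808 with Gm49369) and Ctsl (2137 with Gm47123 and Gm49230). The library kit does not mark the strand, and reads on these bases cannot be told apart by gene, which makes the levels of these 5 genes uncertain to that extent.

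**Figure D1:**
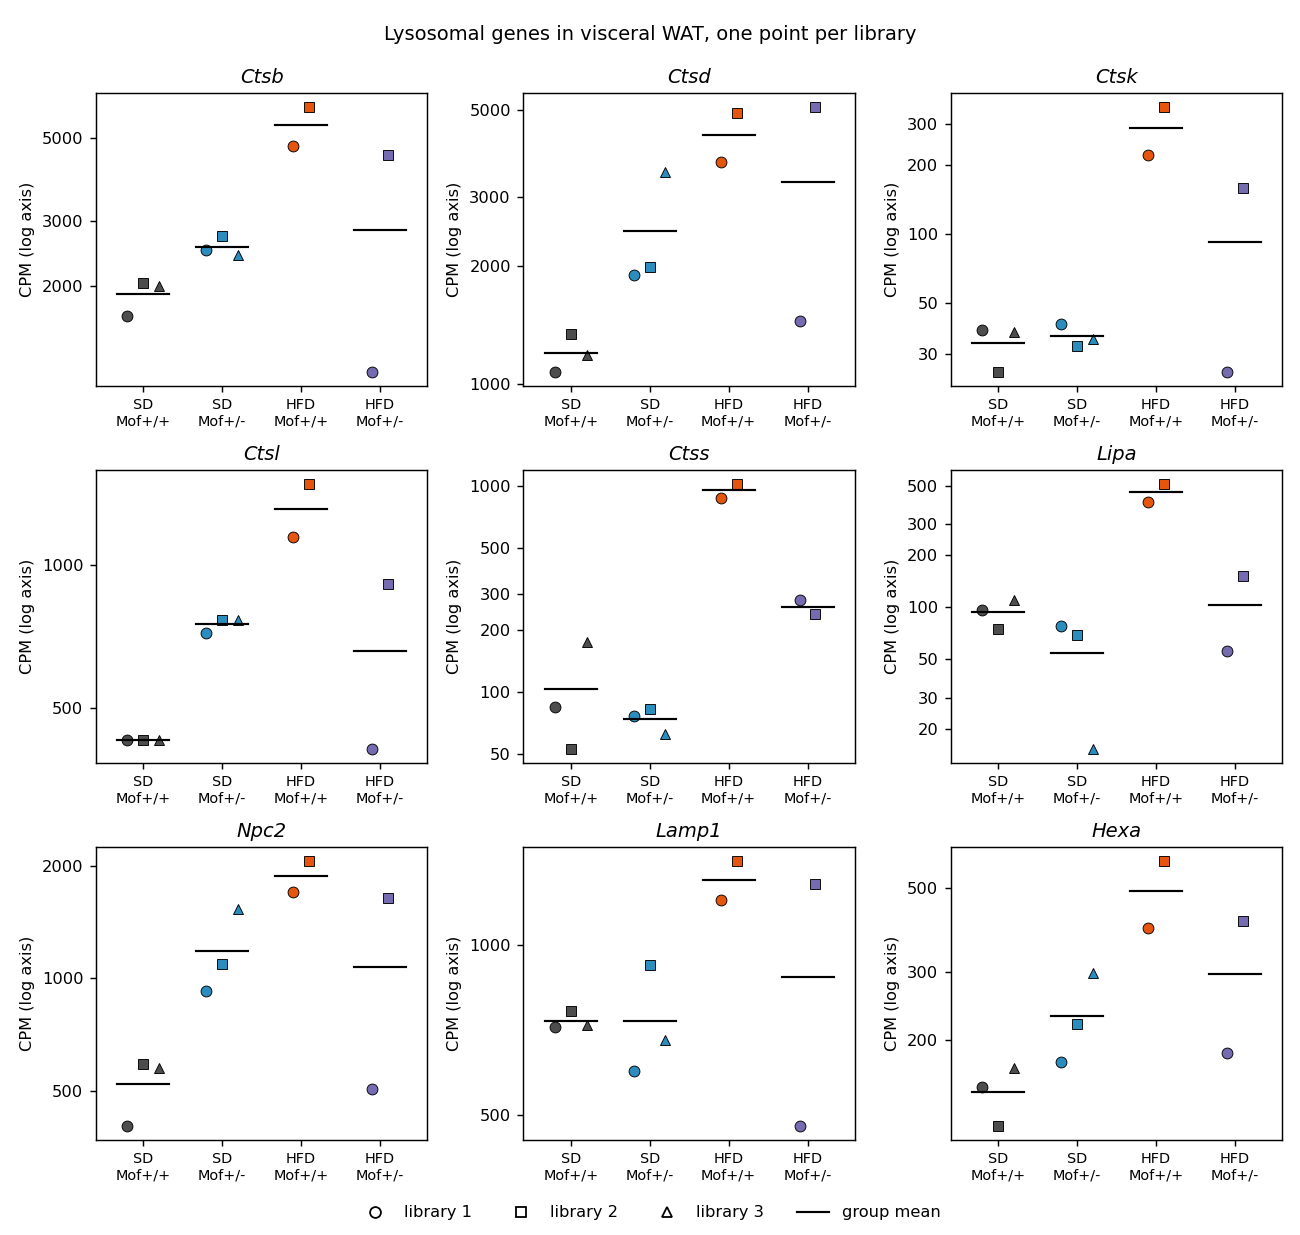
Level of each of the 9 genes in CPM (log axis) in every library, with the 4 groups on the horizontal axis, marker shapes for libraries 1 to 3 and a bar at the group mean. Both HFD Mof+/+ libraries lie above all SD libraries for each gene, and the second HFD Mof+/- library lies above the first for 8 of the 9 genes.

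Per kilobase of the exons of a gene (RPKM, on the union of its annotated exons), the first and last places in the order of the levels were the same in all groups. The union pools all annotated transcripts of a gene, from 1358 bases for Ctss to 6780 for Lipa. It can exceed the length of the transcripts present, so that the order of the genes depends on the annotation. In SD Mof+/+, Ctsd came first with a mean of 511 RPKM (range 456 to 571), followed by Ctsb with 314 (274.6 to 337) and Lamp1 with 274 (267 to 285). Ctsb and Lamp1 overlapped in range, and Ctsd stood above both. Npc2 followed with 96.0 RPKM, Ctss with 76.6, Hexa with 73.0 and Ctsl with 66.0. The ranges of these 4 overlapped with their neighbours, since Ctss ran from 38.8 to 129 RPKM. Ctsk was eighth with 22.1 RPKM (16.6 to 25.3) and Lipa ninth with 13.8 (11.1 to 16.2). Ctsd and Ctsb kept the first and second, and Ctsk and Lipa the eighth and ninth, place in all 4 groups. Ctss changed place most, from rank 5 in SD Mof+/+ to 7 in SD Mof+/-, 3 in HFD Mof+/+ and 5 in HFD Mof+/-, with a mean of 704 RPKM (649 to 759) in HFD Mof+/+.

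The first comparison asked how the tissue of wild type mice differed with HFD. All 9 genes were higher on HFD and all 9 passed the threshold of an adjusted p of 0.05 (edgeR quasi-likelihood test with Benjamini-Hochberg adjustment over all genes tested), beside 6.02% of the 14939 genes tested that were called higher. In all 9 the HFD libraries lay above all SD libraries, which held for 21.0% of the genes tested. The median log2 fold change was 1.97 for the 9 genes and -0.04 for all genes tested. The fold changes were highest for the antigen-presenting cell and osteoclast proteases Ctss and Ctsk. Ctss was 10.1-fold higher (log2 fold change 3.33, SE 0.46, adjusted p = 0.0104 by edgeR), and Ctsk was 9.43-fold higher (3.24, SE 0.28, adjusted p = 0.00319 by edgeR). The intervals of these fold changes (4.80 to 21.2 for Ctss, 5.94 to 14.98 for Ctsk) overlapped. Among the other cathepsins the increase was 3.11-fold for Ctsb (SE 0.22 on the log2 scale, adjusted p = 0.00963), 3.91-fold for Ctsd (SE 0.22, adjusted p = 0.0065) and 3.36-fold for Ctsl (SE 0.19, adjusted p = 0.00625). These 3 genes moved by similar amounts from very different levels.

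The lipid genes rose as well, Lipa 5.35-fold (SE 0.22, adjusted p = 0.00353 by edgeR) and Npc2 3.93-fold (SE 0.24, adjusted p = 0.00751). Hexa rose 3.69-fold (SE 0.24, adjusted p = 0.00901). The lowest fold change was that of the membrane protein gene Lamp1, at 1.94-fold (interval 1.43 to 2.62, adjusted p = 0.0269 by edgeR), and its interval lay below those of Ctsd, Ctsk, Ctss, Lipa and Npc2. DESeq2 also called all 9 genes higher, beside 13.5% of all genes it fitted, in either direction. The direction held for all 9 when any library was left out, but the calls did not: 4 genes (Ctsk, Ctsl, Lipa and Npc2) passed without the first SD Mof+/+ library, 8 (all but Lamp1) without the first HFD Mof+/+ library and 2 (Ctsk and Lipa) without the second HFD Mof+/+ library. In these 3 fits 1.63, 1.49 and 0.384% of all genes tested were called in either direction. With the libraries grouped by column headings, all 9 were still higher and 0 passed, as for all genes, and in one fit to all 10 libraries 4 passed (Ctsk, Ctsl, Ctss and Hexa), beside 0.893% of all genes.

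**Figure D2:**
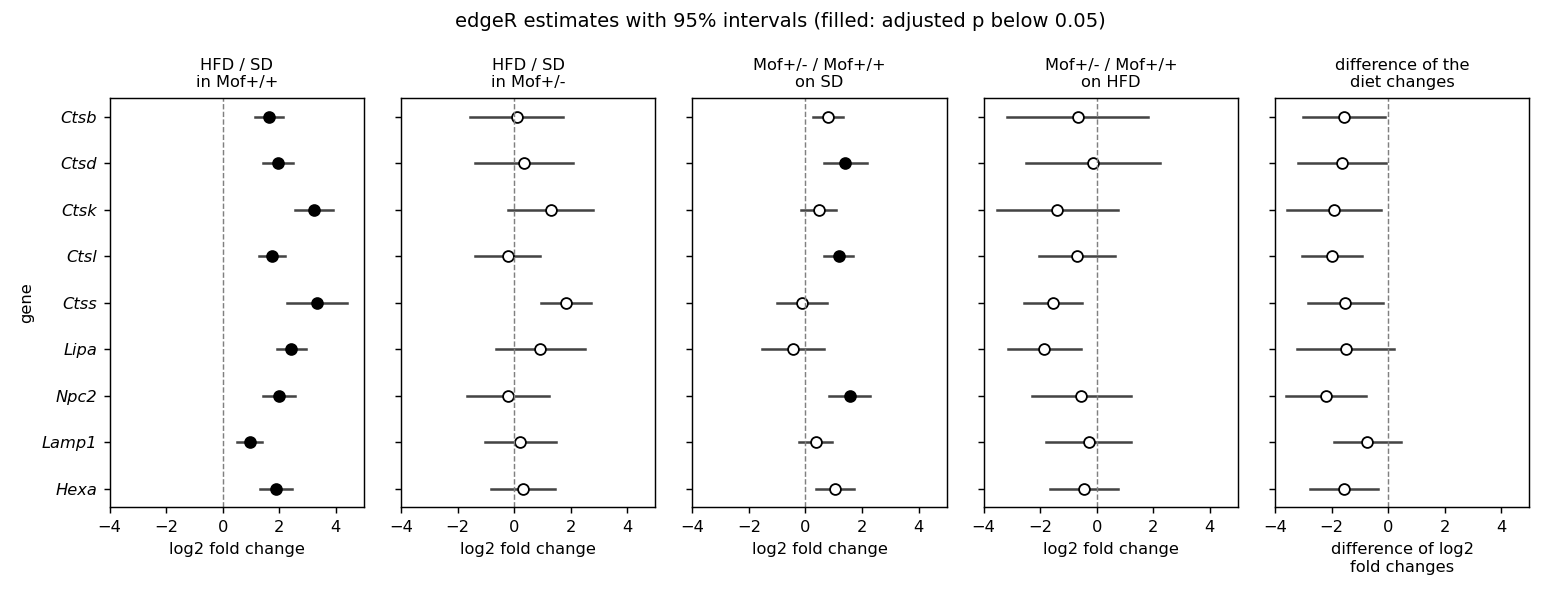
Log2 fold change of each gene with its 95% interval (edgeR) in the 4 comparisons of groups, and in the last panel the difference of the log2 fold changes with diet, Mof+/- minus Mof+/+. Filled points, with an adjusted p below 0.05, are found for all 9 genes in Mof+/+ with diet and for Ctsd, Ctsl and Npc2 between the genotypes on SD.

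Macrophage markers moved with the 9 genes in wild type mice. Of 10 macrophage markers, 6 were called higher on HFD and 1 lower (Cd163), and all 6 markers of lipid-associated macrophages were called higher (edgeR). Cd68 rose 10.3-fold and Itgam 10.2-fold, and Trem2, a receptor of lipid-associated macrophages, rose 31.1-fold. Macrophage markers not past the threshold were Csf1r (1.75-fold), Mrc1 (1.64-fold) and Mertk (0.636-fold). The summed macrophage markers ranged from 957 to 1655 CPM in SD Mof+/+ and were at 4066 and 5175 CPM in HFD Mof+/+. The 9 genes together took 0.465 to 0.543% of all counts in SD Mof+/+ and 1.44 and 1.84% in HFD Mof+/+. The ratio of the 9 genes' summed CPM to that of the macrophage markers was 3.24 to 5.68 in SD Mof+/+ and 3.54 and 3.56 in HFD Mof+/+, within the range of the SD Mof+/+ libraries. In Mof+/- it was 4.44, 6.33 and 9.64 on SD and 3.81 and 7.12 on HFD. Such sums are led by the genes with the most counts. Single genes of the 9 rose by 1.94-fold (Lamp1) to 10.1-fold (Ctss) in Mof+/+. Of 8 adipocyte markers, 1 was called higher (Lep) and 1 lower (Retn), and of 5 endothelial markers 2 were called lower. All 4 glial markers tested were lower on HFD without overlap, 2 of them past the threshold. The part of macrophages or other cells in the rise of the 9 genes was not tested.

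**Figure D3:**
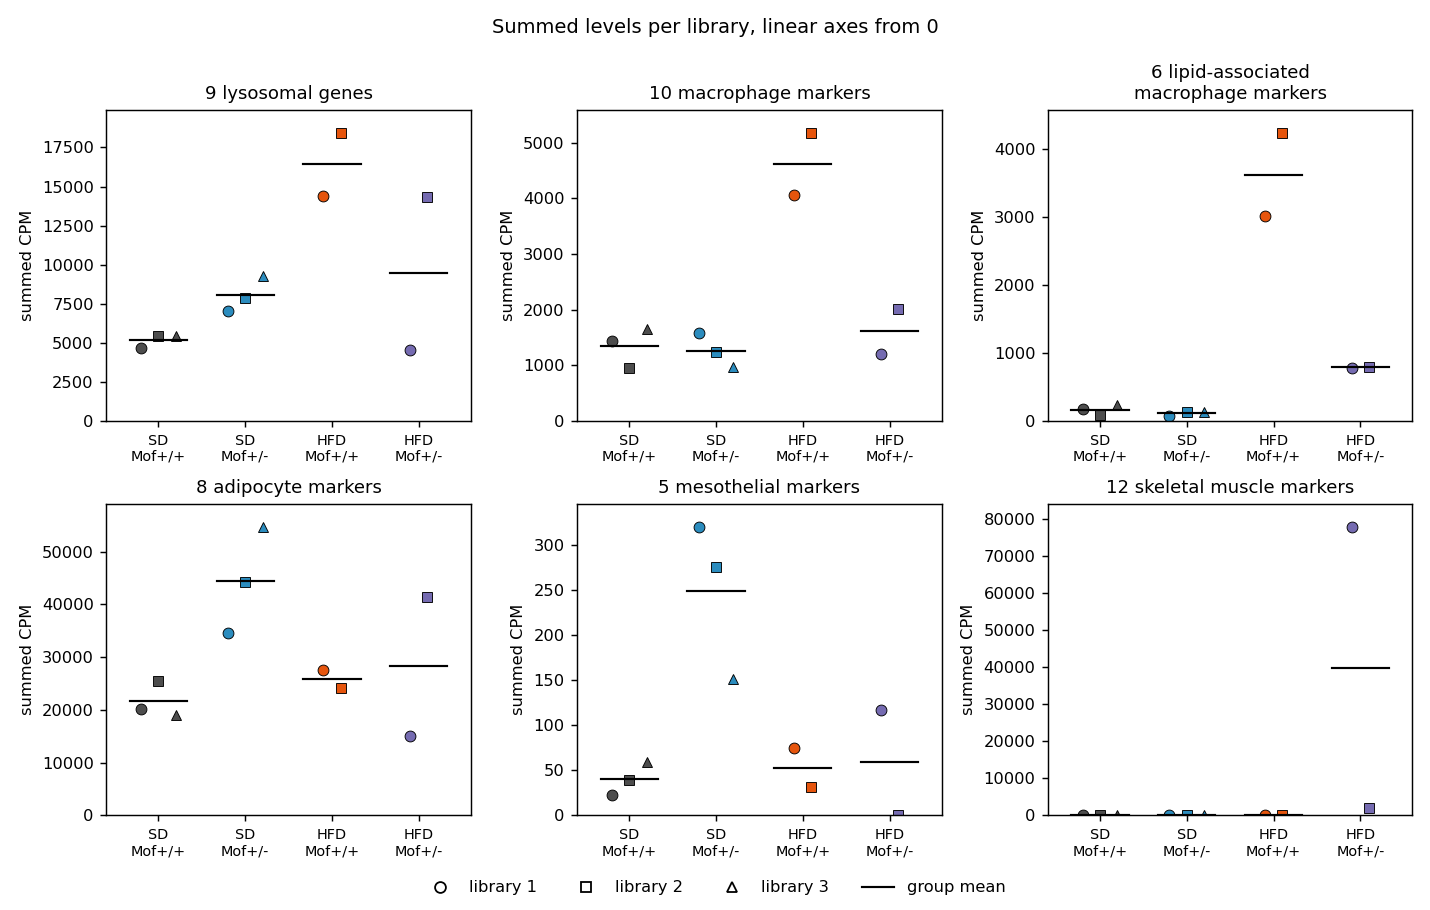
Summed CPM per library (linear axes from 0) of the 9 lysosomal genes and of 5 lists of cell type markers, with marker shapes for libraries and bars at group means. The 9 genes and both macrophage lists are highest in HFD Mof+/+, and the skeletal muscle markers reach 77620 CPM in the first HFD Mof+/- library.

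The second comparison asked how the genotypes differed on SD. On SD 7 of the 9 genes had higher estimates in Mof+/- and 3 of them passed the threshold, Ctsd, Ctsl and Npc2, beside 3.33% of the 13864 genes tested that were called higher. Ctsl was 2.26-fold higher (log2 fold change 1.17, SE 0.22, adjusted p = 0.0333 by edgeR), Ctsd 2.66-fold (1.41, SE 0.33, adjusted p = 0.0486) and Npc2 2.95-fold (1.56, SE 0.31, adjusted p = 0.0371). The genotypes did not overlap for these 3 genes, nor for Ctsb and Hexa, so that 5 of 9 genes were higher without overlap, beside 9.71% of the genes tested. Ctsb was at 1.72-fold (adjusted p = 0.0823 by edgeR) and Hexa at 2.06-fold (adjusted p = 0.0702), neither past the threshold. The other 4 genes overlapped between genotypes. Their log2 fold changes were 0.46 for Ctsk (interval -0.17 to 1.10), 0.36 for Lamp1 (-0.21 to 0.93), -0.13 for Ctss (-1.01 to 0.76) and -0.45 for Lipa (-1.55 to 0.65). The median over the 9 genes was 0.78, and that over all genes tested was -0.07.

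The log2 fold changes of the 3 called genes kept their direction when any 1 library was left out, at 1.12 to 1.23 for Ctsl, 1.01 to 1.60 for Ctsd and 1.27 to 1.74 for Npc2, but the calls did not hold. Leaving out Mof+/+ library 1, 2 or 3 or Mof+/- library 2 left 0 of the 9 past the threshold, whereas 4 passed without Mof+/- library 1 and 3 without Mof+/- library 3. The calls over all genes moved alike, at 0.13, 0.239, 0.512 and 0.115% of the genes tested in the fits with 0 of the 9, and at 6.89 and 4.51% in those with 4 and 3. DESeq2 called 5 higher (Ctsb, Ctsd, Ctsl, Npc2 and Hexa), beside 9.97% of all genes it fitted, in either direction. With library totals in place of TMM scaling 0 passed, beside 5.09% of all genes called in either direction, and Lamp1 had a log2 fold change of -0.00. The groups of the column headings mix libraries with and without Xist. With them 0 passed, as for all genes, and Ctsd, Npc2 and Hexa turned lower. The correlation of gene length with level relative to the mean of the libraries (Spearman's rho across genes) was 0.23 to 0.31 in SD Mof+/+ and -0.29 to 0.08 in SD Mof+/-. After correction for length 2 of the 9 genes passed (Ctsl and Npc2), beside 2.47% of all genes called in either direction. Ctsk and Lamp1 were then no longer higher. Marker genes of other cells differed between these groups too. Called higher in Mof+/- were 4 of 8 adipocyte markers, 3 of 5 mesothelial markers and 2 of 7 fibroblast and progenitor markers, all 7 with higher estimates. Called lower were 3 of 5 endothelial and 2 of 4 glial markers, whereas 0 of 10 macrophage markers passed (edgeR, 2 at an unadjusted p under 0.05). The macrophage sum was 963 to 1580 CPM in Mof+/- and 957 to 1655 CPM in Mof+/+, and the adipocyte sum was 34650 to 54590 against 19100 to 25410 CPM. The part of these cells in the SD result was not tested.

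The third comparison asked how the genotypes differed on HFD. All 9 genes had lower estimates in Mof+/-, and 0 passed the threshold in edgeR, as for all genes tested (0% of 14120 called). At an unadjusted p under 0.05 there were 2, Ctss and Lipa, beside 12.3% of all genes, and DESeq2 called 0 of the 9, beside 1.37% of the genes to which it gave an adjusted p. Ctss had a log2 fold change of -1.53 (SE 0.39, adjusted p = 0.278 by edgeR) and Lipa one of -1.87 (SE 0.49, adjusted p = 0.278). In all, 6 genes were lower in both Mof+/- libraries than in either Mof+/+ library (Ctsb, Ctsk, Ctsl, Ctss, Lipa and Npc2), which was also seen in 45.6% of all genes tested. For Ctsd, Lamp1 and Hexa the groups overlapped. The median log2 fold change was -0.68 for the 9 genes and -0.24 for all genes tested.

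The spread in HFD Mof+/- was wide, and the intervals were accordingly broad, such as -3.18 to 1.82 for Ctsb. The second library was higher than the first for 8 of the 9 genes, from 2.23-fold (Hexa and Ctsl) to 6.38-fold (Ctsk), whereas Ctss was at 0.858-fold. The first library lay below both HFD Mof+/+ libraries for all 9 genes and below all SD Mof+/+ libraries for 5 of them. The second lay above all 6 SD libraries for all 9 genes, below both HFD Mof+/+ libraries for 6 and above both for Ctsd. Without the first library, 7 genes had lower and 2 had higher estimates (Ctsd, 0.41, and Lamp1, 0.14), and Ctss and Lipa passed as lower, beside 27.2% of all genes called in that fit. Without the second library all 9 passed as lower, beside 47.9% of all genes tested, in a fit where the remaining library was taken to vary like the other group. Macrophage sums were 1198 and 2018 CPM in HFD Mof+/-, below both HFD Mof+/+ libraries, and Adgre1, which encodes F4/80, was at 0 in the first library. The sums of lipid-associated macrophage markers were 775 and 799 CPM, against 3006 and 4230 CPM in HFD Mof+/+. Of these markers, 9 of 10 and 6 of 6 had lower estimates and 0 passed (edgeR, 4 of each list at an unadjusted p under 0.05). The part of macrophages, of muscle or of the low depth of the first library in this comparison was not tested.

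The fourth comparison set the diets against each other in Mof+/-. Ctss was the gene with the clearest difference, 3.56-fold higher on HFD (log2 fold change 1.83, SE 0.38, adjusted p = 0.207 by edgeR). None of the 9 genes passed the threshold, as for all 13610 genes tested (0% called), and Ctss alone had an unadjusted p under 0.05, beside 8.57% of all genes. DESeq2 called Ctss only among the 9, beside 3.54% of the genes to which it gave an adjusted p. Ctss was also the only one without overlap between the diets, which was seen as higher in 9.88% of the genes tested. Of the others, 6 had higher and 2 lower estimates, with intervals that all included no change. Ctsk was at 1.30 on the log2 scale (interval -0.20 to 2.80), Lipa at 0.93 (-0.64 to 2.49) and Ctsl at -0.22 (-1.38 to 0.93). The median was 0.31 for the 9 genes and -0.26 for all genes tested. These directions depended on the library, since all 9 were higher without the first HFD Mof+/- library and 2 of 9 were higher (Ctss and Lipa) without the second, where Ctss passed, beside 13.8% of all genes called in that fit. All 6 markers of lipid-associated macrophages had higher estimates on HFD in Mof+/-, 5 without overlap and 4 at an unadjusted p under 0.05, and all 7 fibroblast and progenitor markers had lower ones, 4 at an unadjusted p under 0.05, with 0 of either list past the threshold (edgeR). Of the 10 macrophage markers 5 had higher and 5 lower estimates. All 12 skeletal muscle markers were higher without overlap, whereas 7 of 8 adipocyte and 5 of 5 mesothelial markers had lower estimates. The part of these cells in the Ctss values was not tested.

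The interaction asked whether the change with diet differed between the genotypes. All 9 genes had a negative estimate, a lower change in Mof+/- than in Mof+/+, and 0 of the 9 passed the threshold in edgeR, beside 0.0629% of the 15897 genes tested that were called lower. At an unadjusted p under 0.05 there were 7, all but Lipa and Lamp1, beside 12.4% of all genes in either direction. DESeq2 called 2 (Ctsl and Npc2), beside 3.35% of the genes to which it gave an adjusted p. The estimates were -1.97 for Ctsl (SE 0.48, adjusted p = 0.162 by edgeR) and -2.19 for Npc2 (SE 0.65, adjusted p = 0.226). With any 1 library left out they ran from -2.53 to -1.54 for Ctsl and from -3.13 to -1.60 for Npc2. Lamp1 had the estimate nearest to 0, at -0.74 (interval -1.93 to 0.45, and -1.48 to -0.22 with any 1 library left out). The median was -1.57 for the 9 genes and -0.41 for all genes tested. Without the first HFD Mof+/- library 0 passed with all 9 negative, and without the second 7 passed, all but Ctss and Lipa, beside 17.7% of all genes called in that fit. Of the macrophage markers 9 of 10 were negative, with 6 at an unadjusted p under 0.05, 1 past the threshold (Itgam) and a median of -1.55, and 7 of 7 fibroblast and progenitor markers were negative, with a median of -1.48. All 5 mesothelial markers were negative too, with a median of -3.06. All 12 skeletal muscle, 5 endothelial and 5 glial markers tested were positive, with medians of 10.1, 1.60 and 4.66. The part of these cells in the interaction of the 9 genes was not tested. The diet comparisons and the genotype comparisons share libraries, so that their estimates are not independent of each other.

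Other lysosomal genes were taken by role from 11 lists written from general knowledge. In wild type mice on HFD, at least 1 gene of each list was called higher and 0 lower (edgeR), beside 6.02% of all genes called higher. Among the hydrolases, the counts were 3 of 8 other cathepsins, 4 of 6 other peptidases, 6 of 21 glycosidases, 1 of 8 sulfatases, 2 of 8 lipid hydrolases and activators, and 2 of 7 phosphatases and nucleases. Ctsz, a carboxypeptidase, was at 139 to 213 CPM on SD and rose to 686 and 991 CPM on HFD (log2 fold change 2.43, adjusted p = 0.00534). Lgmn, the asparaginyl endopeptidase that processes cathepsins, rose by 2.08 on the log2 scale (adjusted p = 0.00625), and Gla, alpha-galactosidase A, by 2.71 (adjusted p = 0.00496). Dnase2a, the acid nuclease of lysosomes, rose by 2.50 and Psap, the precursor of the saposins that assist lipid hydrolysis, by 1.60.

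The V-ATPase, the proton pump that acidifies lysosomes, had 12 of 18 subunit genes called higher, and the median of their log2 fold changes was 1.12. Atp6v0d2, a subunit found in macrophages and osteoclasts, was at 2.04 to 3.01 CPM in SD Mof+/+ and at 199 and 304 CPM in HFD Mof+/+ (log2 fold change 6.75, adjusted p = 0.000597 by edgeR). In Mof+/- it was at 1.46 to 2.53 CPM on SD and at 74.7 and 73.8 CPM on HFD. It was thus higher on HFD in both genotypes without overlap, although in Mof+/- the adjusted p was 0.104. Tcirg1, which also encodes a subunit known from osteoclasts, rose by 1.98 on the log2 scale in wild type mice. Of the membrane proteins 3 of 15 were called higher, among them Slc11a1 (2.57), a metal transporter of macrophage lysosomes, and Cd63 (1.54). Of the genes for mannose 6-phosphate targeting 1 of 9 was called (Igf2r, 0.84), and of the MiT/TFE factors and mTORC1 control genes 2 of 11 (Mitf, 1.57, and Lamtor1, 0.92). The cathepsin inhibitors Cstb and Cst3 rose by 2.87 and 0.78, 2 of the 3 cystatin genes tested.

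Between the genotypes on SD, where 3.33% of all genes were called higher and 265 of 13864 lower, the genes of these lists past the threshold were Dpp7, a dipeptidyl peptidase (1.88 higher in Mof+/- on the log2 scale, adjusted p = 0.0268 by edgeR), Dnase2a (1.83), Cd63 (1.48), Laptm4a (1.15), Atp6v1e1 (1.26) and Cstb (1.24), with Tcirg1 lower (-1.63, adjusted p = 0.0356). In counts these are 1 of 6 other peptidases, 1 of 7 phosphatases and nucleases, 2 of 15 membrane proteins, 1 of 18 V-ATPase genes higher and 1 lower, and 1 of 2 cystatins, against 0 in the lists of other cathepsins, glycosidases, sulfatases, lipid hydrolases, targeting, and MiT/TFE and mTORC1 control. The medians ran from -0.49 (MiT/TFE and mTORC1 control) to 1.11 (cystatins), beside -0.07 for all genes. In the genotype comparison on HFD, the diet comparison in Mof+/- and the interaction, 0 genes of the 11 lists passed in edgeR. In the interaction, where the median of all genes was -0.41, negative estimates were found for 6 of 8 other cathepsins, 6 of 6 other peptidases, 20 of 21 glycosidases, 6 of 8 sulfatases, 8 of 8 lipid hydrolases and activators, 6 of 7 phosphatases and nucleases, 13 of 15 membrane proteins, 18 of 18 V-ATPase genes, 7 of 9 targeting genes, 7 of 11 MiT/TFE and mTORC1 control genes and 2 of 4 cystatins. In the same order, 3, 4, 7, 0, 4, 1, 1, 5, 1, 1 and 1 had an unadjusted p under 0.05, beside 12.4% of all genes.

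**Figure D4:**
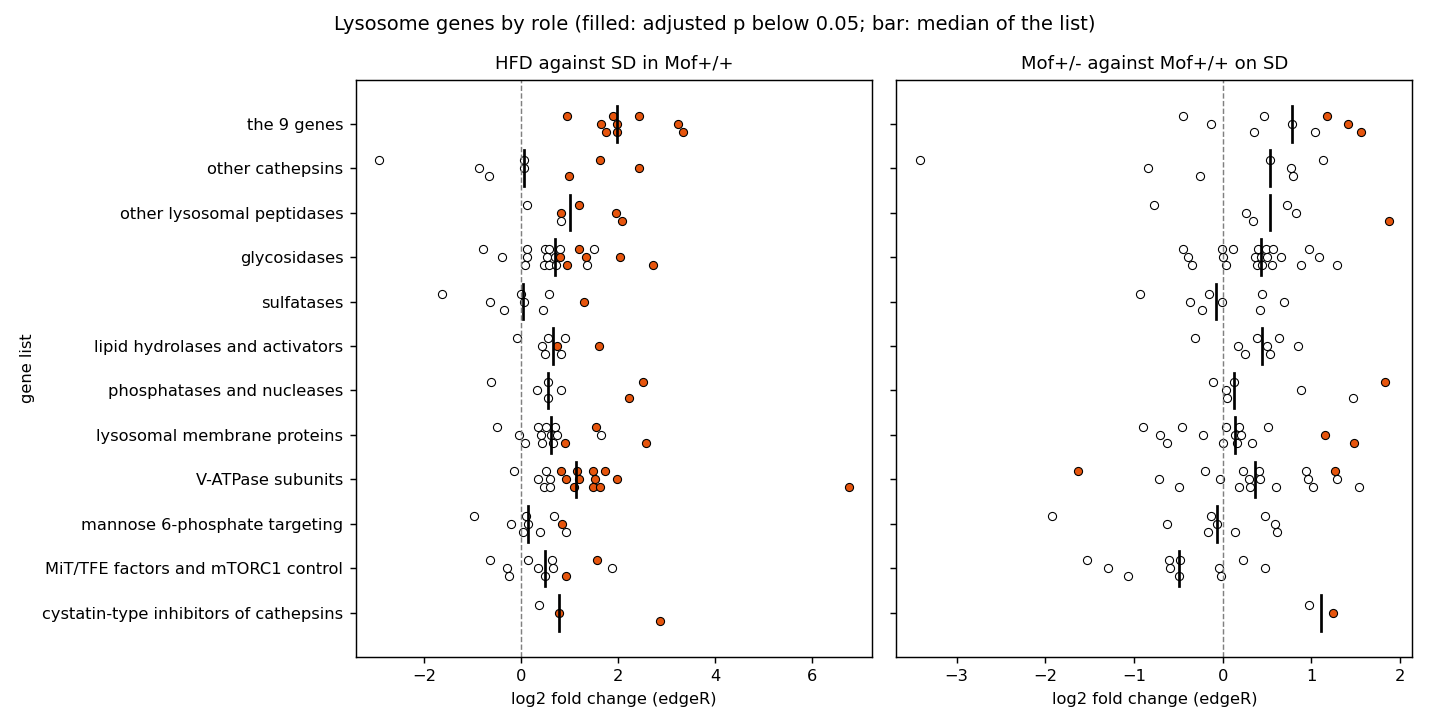
Log2 fold change (edgeR) of each tested gene of the 9 and of 11 lists of other lysosomal genes, for diet in Mof+/+ (left) and genotype on SD (right), with filled points for an adjusted p below 0.05 and a bar at the median. On the left all 9 genes and 12 of 18 V-ATPase genes are filled, and on the right 3 of the 9.

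Across the 10 libraries the 9 genes varied together to different degrees. Over the 36 pairs, Pearson's r of TMM-scaled log2 CPM ranged from 0.29 (Lipa and Npc2) to 0.97 (Ctsd and Npc2), with a median of 0.83. Against the mean of the other 8, Ctsb had an r of 0.95, Ctsk of 0.94, Hexa of 0.93 and Ctsl of 0.92, whereas Ctss had 0.71 and Lipa 0.58. These values describe 10 libraries that share their groups, depth and tissue makeup. Among 11308 other genes, those most like the mean of the 9 over the 10 libraries were C1qb (r of 0.98), Ms4a7 (0.98), Tmem106a (0.98), Grn (0.97) and Vat1 (0.97). C1qb encodes a chain of complement C1q, Ms4a7 is a macrophage membrane protein gene, and Grn encodes progranulin, a glycoprotein of lysosomes. C1qb was at 162 to 212 CPM in SD Mof+/+, 285 to 404 CPM in SD Mof+/-, 714 and 1162 CPM in HFD Mof+/+, and 195 and 729 CPM in HFD Mof+/-. It thus had the same order of group means as Ctsb, Ctsd, Ctsk and Hexa, with the first HFD Mof+/- library again near the SD Mof+/+ libraries.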

How the data were processed

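Visceral WAT was profiled in 10 libraries by paired-end mRNA-seq (TruSeq RNA v2). The authors aligned reads with STAR (GRCm38), assigned them to genes by featureCounts (Subread 1.5.0-p1), and deposited the raw counts per gene and library without normalization. The annotation release is not given in the sources used here. Of 47937 identifiers, 47224 were matched to symbols in GENCODE M21 without the version. The labels call the libraries biological replicates.

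Groups were compared with edgeR 4.0.16 (TMM, filterByExpr, quasi-likelihood test, two-sided) on the libraries compared, and the interaction on all 10, with Benjamini-Hochberg adjustment over all genes and a threshold of 0.05. All 9 genes passed the filter in each comparison. Standard errors (SE) were the log2 fold change divided by the square root of F, and 95% intervals used the total degrees of freedom. CPM used the total of counts on genes. The log2 CPM used for correlations was scaled by TMM, with a prior count of 1. Intervals on counts cover counting error only. The 9 genes and all lists were chosen with earlier results of these data known. Named genes were the 9, the sex-linked genes and Kat8, up to 4 called genes per list with the highest absolute log2 fold change, and the 5 genes most correlated with the mean Z-score of the 9, among genes with a mean of at least 50 counts. Single cell type markers, the levels of C1qb and Atp6v0d2 in Mof+/- were chosen after their values were seen. The values of 1 gene of the lists are not reported here, and counts cover whole lists.

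Alternatives were DESeq2 1.42.0, its size factors, TMM without muscle and mitochondrial genes, no filter, a minimum of 10 counts per library, a replicate block, a length correction, grouping by column headings, all 10 libraries in one fit, and leaving out each library. Library totals in place of TMM were chosen after seeing the data. The edgeR step was tested on simulated data with 200 changed genes. R 4.3.3, Python 3.11.15, pandas 2.3.3 and matplotlib 3.10.9 were used.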

Additional observations from a re-analysis of the deposited data

How the results depend on the processing

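Ranges over fits with 1 library left out are given here for counts and for estimates that changed sign. A lone HFD library in a group was assumed to vary like the other groups. Of the 9 genes, the number past the threshold was 0 to 4 between genotypes on SD (3 with all libraries), 0 to 9 between genotypes on HFD (0), 2 to 9 between diets in Mof+/+ (9), 0 to 1 between diets in Mof+/- (0) and 0 to 7 for the interaction (0). On SD it was 5 with DESeq2 and 0 with the column headings, with all 10 libraries in one fit and with library totals. In the same order 9.97, 0, 1.22 and 5.09% of all genes fitted were called, in either direction. The number was 2 with DESeq2's size factors, with the length correction and with the replicate block, beside 4.57, 2.47 and 3.09% of all genes. Between diets in Mof+/+ it was 8 with the replicate block (Lamp1 lost), 0 with the column headings and 4 with all 10 libraries in one fit. In these fits 9.77, 0 and 0.893% of all genes were called, in either direction. Between diets in Mof+/- the number was 1 with DESeq2, with no filter on low counts and with the replicate block. In these fits 2.3, 2.1 and 1.8% of all genes fitted were called. For the interaction the number was 2 with DESeq2 and with no filter, beside 2.16 and 1.62% of all genes fitted. The replicate numbers of the labels did not pair the libraries (same-numbered libraries deviated together with r from 0.0053 to 0.0077 on SD and 0.0255 on HFD). The replicate block gave 2 genes between genotypes on HFD, beside 1.42% of all genes called in either direction. The counts of all genes past the threshold, when libraries were left out, were 17 to 1026 on SD (727 with all), 92 to 7551 on HFD (0), 64 to 2230 between diets in Mof+/+ (1457), 0 to 2122 in Mof+/- (0) and 4 to 3163 for the interaction (14). DESeq2 gave 2198, 198, 2974, 471 and 505.

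Signs turned as follows, on the log2 scale. Between genotypes on SD, Ctss was 0.038 with the replicate block, Ctsk -0.28 and Lamp1 -0.0115 with the length correction, and Lamp1 -0.0013 with library totals. With the column headings Ctsd was -0.27, Npc2 -0.0231, Hexa -0.0619, Ctss 0.72 and Lipa 0.59, and leaving out libraries gave -0.43 to 0.45 for Ctss. Between genotypes on HFD, leaving out libraries gave -1.18 to 0.41 for Ctsd and -1.05 to 0.14 for Lamp1. Between diets in Mof+/-, Ctsb was -0.13 with the replicate block, and Ctsl 0.15 and Npc2 0.39 with the column headings. Leaving out libraries there gave -1.02 to 0.70 for Ctsb, -0.67 to 0.92 for Ctsd, -0.43 to 2.02 for Ctsk, -0.78 to 0.16 for Ctsl, -1.14 to 0.33 for Npc2, -0.51 to 0.68 for Lamp1 and -0.24 to 0.69 for Hexa. For the interaction, Ctsd was 0.0374 with the column headings. The cause of these turns was not tested. Library totals moved the median of all genes by -0.35 between genotypes on SD, -0.28 between genotypes on HFD, -0.13 between diets in Mof+/+ and 0.17 for the interaction. The column headings leave the HFD groups as they are, so that grouping was not run for the genotypes on HFD. The depth of 1044355 counts in the first HFD Mof+/- library limits its values.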
